A study of Mus musculus with 12 samples.

Results

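A set of 2541 genomic regions inside protein-coding genes carried a Zic1/2 CUT&RUN peak in all 12 libraries of a culture series of mouse cerebellar granule neurons. The neurons were kept in culture for 1, 3, 5 or 7 days, named DIV1, DIV3, DIV5 and DIV7, with 3 biological replicates per day according to the series design, and 1 antibody to the Zic1/2 C terminus was used throughout. No genotype or strain was given in the labels, and 1 uM cytosine arabinoside, which stops dividing cells, was added at DIV2, so the DIV1 neurons were harvested before it and all others after it. Effects of the drug and of time between DIV1 and the later days therefore cannot be told apart. The regions were obtained by merging the peaks of the 12 lists where they overlapped by 1 bp or more on chromosomes 1 to 19 and X. A region was kept if every library had a peak in it, if it was under 3000 bp wide, if it overlapped the mm10 span of a protein-coding gene, and if it lay more than 1 kb from any end of such a gene. This selected 2541 of 282545 merged regions and 20.8% of the 12241 regions called in all 12 libraries. The regions were thus chosen by measured values, the presence of a peak in every library and the merged width, and by position. A peak in every library also sets a floor on height and leaves out regions that lack a peak in any library. Height and timing can therefore be observed only within these limits, beside summit position and sequence content.

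The zinc finger proteins Zic1 and Zic2 are active in dividing granule progenitors and remain present in postmitotic granule neurons. Factors of this kind bind promoters as well as distal elements, many of which lie in introns of long neuronal genes, and a gene can also have further start sites deep within its span, from which shorter transcripts begin. In CUT&RUN an antibody brings a nuclease to the bound protein in intact nuclei, and the released DNA fragments are sequenced. DNA was measured and not RNA, so the labelled cell type could not be checked by the expression of its markers.

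The regions were on average well inside their genes, but they were not a sample of introns alone, since 527 of them (20.7%) held an annotated protein-coding start site that lay away from the ends of the gene. Another 40 held a start of a long noncoding RNA only, and 1974 held no start in the RefSeq table. The windows around 6 of these starts illustrate the range of sequence. They span 250 bases before to 50 after the start, on the strand of the gene, and come from RefSeq on GRCm38.p6, the assembly behind mm10. In the first 5 the capitals mark CG dinucleotides. The Syn2 pair sets the internal start, whose region rose between DIV1 and DIV3, against the 5′ start of the same gene, Pde2a shows the start in a falling region, Abhd18 that in a tall one, and Fam222b that in a region that was low at DIV3. In the Fancc window the capitals mark the Zic core heptamer, because this was the start window with the core whose region had the highest mean percentile.
Syn2, internal start, chr6:115238744-115239043, plus strand: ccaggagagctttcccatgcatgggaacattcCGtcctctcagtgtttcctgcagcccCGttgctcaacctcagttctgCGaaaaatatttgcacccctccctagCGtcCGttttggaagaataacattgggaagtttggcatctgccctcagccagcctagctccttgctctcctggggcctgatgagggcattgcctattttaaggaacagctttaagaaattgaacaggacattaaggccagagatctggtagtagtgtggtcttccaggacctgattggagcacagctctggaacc
Syn2, 5′ start, chr6:115134652-115134951, plus strand: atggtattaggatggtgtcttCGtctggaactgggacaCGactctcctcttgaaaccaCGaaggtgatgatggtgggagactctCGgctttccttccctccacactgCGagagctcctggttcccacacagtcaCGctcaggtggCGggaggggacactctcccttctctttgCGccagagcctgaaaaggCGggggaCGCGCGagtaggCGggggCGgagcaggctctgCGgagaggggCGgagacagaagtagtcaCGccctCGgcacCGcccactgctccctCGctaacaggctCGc
Pde2a, internal start, chr7:101455812-101456111, plus strand: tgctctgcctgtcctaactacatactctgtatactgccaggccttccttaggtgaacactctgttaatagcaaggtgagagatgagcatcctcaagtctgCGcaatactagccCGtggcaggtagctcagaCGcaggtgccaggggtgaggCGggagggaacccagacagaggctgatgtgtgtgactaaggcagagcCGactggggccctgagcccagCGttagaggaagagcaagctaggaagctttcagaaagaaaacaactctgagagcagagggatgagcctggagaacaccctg
Abhd18, internal start, chr3:40894009-40894308, plus strand: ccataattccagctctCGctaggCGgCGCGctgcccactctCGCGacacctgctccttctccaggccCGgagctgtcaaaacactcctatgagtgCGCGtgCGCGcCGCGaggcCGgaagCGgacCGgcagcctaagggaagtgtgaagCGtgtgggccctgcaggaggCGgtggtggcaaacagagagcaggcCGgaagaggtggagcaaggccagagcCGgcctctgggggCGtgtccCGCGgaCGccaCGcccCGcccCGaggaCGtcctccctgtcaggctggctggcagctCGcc
Fam222b, internal start, chr11:78115376-78115675, plus strand: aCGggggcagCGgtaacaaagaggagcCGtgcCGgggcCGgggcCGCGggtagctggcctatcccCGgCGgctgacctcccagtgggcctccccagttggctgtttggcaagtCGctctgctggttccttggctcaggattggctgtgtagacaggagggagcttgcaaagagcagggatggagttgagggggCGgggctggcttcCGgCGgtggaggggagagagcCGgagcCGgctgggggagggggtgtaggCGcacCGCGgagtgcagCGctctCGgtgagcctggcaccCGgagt
Fancc, internal start, chr13:63431696-63431995, minus strand: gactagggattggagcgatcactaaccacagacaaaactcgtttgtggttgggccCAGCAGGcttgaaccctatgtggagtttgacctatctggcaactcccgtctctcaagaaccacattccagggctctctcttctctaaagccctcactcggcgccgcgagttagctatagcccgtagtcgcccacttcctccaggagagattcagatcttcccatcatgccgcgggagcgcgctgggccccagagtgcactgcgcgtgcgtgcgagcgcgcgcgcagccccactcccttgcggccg
The internal Syn2 window held 5 CG dinucleotides and 51% G and C, against 21 and 62.3% at the 5′ start of the gene. The Pde2a window held 6, the Fam222b window 21, the Fancc window 23 and the Abhd18 window 29.

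Start sites were far more frequent in regions found in all 12 libraries than in regions inside genes found in fewer. The share with a coding start was 0.160% of 80727 regions called in 1 library, 1.98% of 2576 called in 6, 7.50% of 1800 called in 11 and 20.7% of the 2541 called in 12. Regions called in more libraries were also wider, with a median of 259 bp for 1 library and 1583 bp for 12. Among regions of 1 to 2 kb the share was 1.99% for 6 libraries, 6.87% for 11 and 20.1% for 12, so the step from 11 to 12 was about as large at like width. The missing library of the regions called in 11 was mostly one of few reads, DIV7 replicate 3 in 38.7% of cases, DIV7 replicate 1 in 30.2% and DIV5 replicate 3 in 9.44%. The median over regions of the mean reads was 66.3 for 12 libraries and 39.0 for 11, so signal strength also separated these groups, and its part in the share was not tested.

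**Figure D1:**
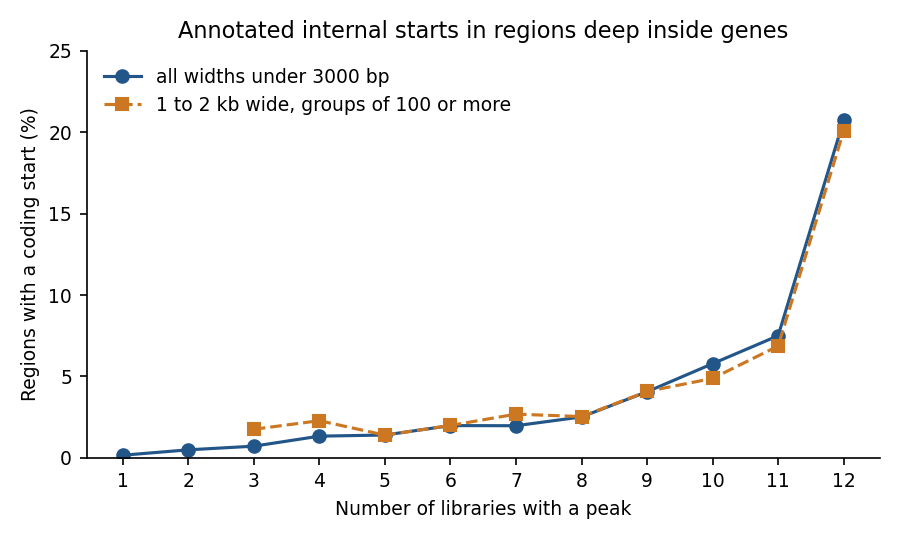
Share of regions inside genes that hold an annotated protein-coding start (y axis, percent) against the number of libraries with a peak (x axis); circles are all regions under 3000 bp and squares those of 1 to 2 kb, for groups of 100 or more. Both lines stay under 8% up to 11 libraries and reach 20.7% and 20.1% at 12.

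Seen from the start sites, 659 of 3881 internal coding start windows (17.0%) had their start in one of the 2541 regions, which together covered 521 genes. In regions of any width called in all 12 libraries the share was 29.7%, against 39.3% of 17164 starts within 1 kb of a gene end. CG dinucleotides were counted in each window. The median count was 23 in the selected regions, 12 where the peak was called in fewer than 12 libraries and 4 where no library had a peak, and the median G and C content was 63.0%, 57.3% and 48.7% in the same order. Starts within 1 kb of a gene end in regions called in 12 libraries had a median of 24 and 63.7%, so high CG content was shared by both kinds of start. The median count over all 21045 coding start windows was 13. The core heptamer of Zic motifs, searched as CCTGCTG and its reverse complement CAGCAGG, occurred in 10.8% of internal windows in the regions, 12.2% of those without a peak and 10.6% of all windows. The E-box CAGCTG, which reads the same on both strands and can share end letters with the heptamer without either containing the other, was found in 12.8%, 19.8% and 15.7%. These letter matches describe 300 bases around the start only, and the 1974 regions without a start were not searched.

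The peak summits lay close to the starts, although the choice of regions did not use them. In the 527 regions with a coding start the summit, taken as the median over the 12 libraries, was a median of 125 bp from the nearest start, and 403 (76.5%) were within 250 bp. In 5002 narrow regions with a start at gene ends these values were 111.5 bp and 82.6%. Summits fell on both sides of the start, with 286 of the 527 (54.3%) downstream. Regions of both classes are under 3000 bp wide, which bounds these distances in both classes.

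**Figure D2:**
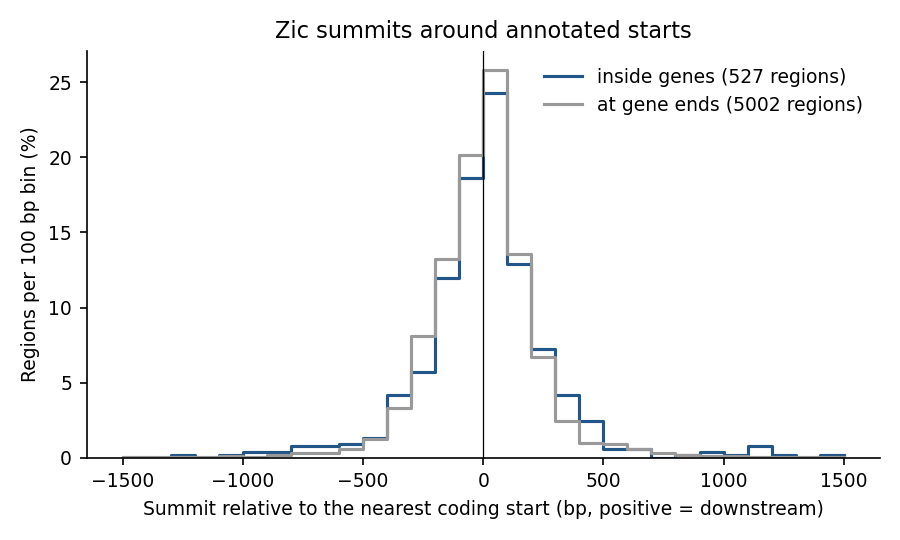
Position of the summit relative to the nearest protein-coding start (x axis, bp, positive values downstream) as the percent of regions per 100 bp bin (y axis), for 527 regions inside genes and 5002 at gene ends. Both profiles peak at the start, with medians of 24.3 and 8.75 bp downstream.

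The regions belonged to long genes. They lay in 1852 of 21631 protein-coding genes (8.56%), with a median gene span of 79.8 kb against 17.3 kb over all genes, and 423 genes held 2 or more. The share of genes with a region was 0.775% for spans under 10 kb, 6.74% for 10 to 50 kb, 19.4% for 50 to 200 kb, 40.8% for 200 to 500 kb and 48.9% above 500 kb. A short gene has little or no sequence more than 1 kb from both ends, so part of this order is set by the choice. The number per Mb of gene span was 1.86 under 10 kb, 3.08 for 10 to 50 kb, 2.84 for 50 to 200 kb, 2.35 for 200 to 500 kb and 1.24 above 500 kb, so from 10 kb up the number per base was lower in longer genes. The distance to the nearest gene end had a median of 17948 bp and ran from 1002 bp in Skp1, a subunit of SCF ubiquitin ligases, to 874970 bp in Lrp1b, a giant receptor of the LDL receptor family. The regions just past the distance limit lay in Msantd2 at 1000 bp and Fam120c at 998 bp, and those on either side of the width limit in Fbxl22 at 2994 bp and Cdkn1a, an inhibitor of cyclin-dependent kinases, at 3000 bp.

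The genes with most regions were of 2 kinds. Sfi1, a centrosome protein gene of 71.5 kb, held 21, and the predicted genes Gm7592 and Gm38510 held 11 and 10. Gse1 and Auts2, which code for chromatin-associated proteins and the second of which is linked to neurodevelopment, held 9 each in spans of 353 and 1106 kb. Sfi1 and predicted genes together held 135 of the regions (5.31%), and no filter for repeated or blacklisted loci was applied. Mapping of reads at such loci was not tested.

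Gene lists of granule neuron biology held between 7 and 36 regions each. Of 25 granule neuron identity genes 9 held a region, among them Pax6, Nfia, Nfix, Meis1, Etv1 and Rbfox3, and together they held 21 regions. Axon guidance and adhesion genes held 32 regions in 18 of 40, synapse genes 28 in 17 of 40, ion channel genes 32 in 16 of 42, glutamate and GABA receptor genes 16 in 10 of 34, cytoskeleton and migration genes 36 in 20 of 36, RNA-binding proteins 23 in 13 of 28, chromatin regulators 24 in 14 of 40, Wnt, Notch, BMP and FGF genes 17 in 11 of 43, and proliferation and Hedgehog genes 7 in 5 of 25. The Hedgehog list was represented by the receptor Ptch1, the transducer Smo, the transcription factors Gli1 and Gli2 and the inhibitor Sufu. Of markers of other cerebellar cells, 1 of 14 Purkinje genes (Rora, 3 regions) and 1 of 14 oligodendrocyte lineage genes (Pdgfra, 2 regions) held any, and 0 of 13 interneuron, 0 of 14 astrocyte and 0 of 15 microglia and vessel genes did. Gene length differed among these lists, with median spans of 248 kb for axon guidance, 104 kb for synapse genes, 30.2 kb for granule identity and 11.4 kb for astrocyte genes, so the shares are not comparable as such.

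Height was measured as the maximum signal of a region in a library, ranked among the 12241 regions called in all libraries and given as a percentile from 0 to 100. The region in Chl1, a cell adhesion molecule of the L1 family (chr6:103649016-103649343, 328 bp), reached the highest signal that any peak had in all 12 libraries, 102 in the libraries of 51-base reads and 100 in those of 50-base reads. It held 330, 331 and 329 reads at DIV1, 324, 340 and 335 at DIV3, 352, 349 and 339 at DIV5, and 334, 331 and 339 at DIV7. In every library the highest maximum of any peak was 2 times the read length, so the region stood at a common upper value in all 12 libraries. Neither its steady height nor its steady reads can therefore be read as constant binding. Whether the signal was limited at that value before deposit is not given in the sources used here and was not tested. The region in Smo, the signal transducer of the Hedgehog pathway (chr6:29747577-29749183), was the tallest of the Hedgehog list. It stood at percentiles from 99.7 to 99.9 in all 12 libraries with 312, 549 and 653 reads at DIV1 and 410, 366 and 631 at DIV7. Other tall regions lay in Myo3a, Zc3h7a, Arhgap21, Cdk8 and the overlap of Cmss1 and Filip1l, all at mean percentiles from 99.7 to 99.8. Ranked by total in place of maximum signal, the narrowest of these regions stood lower, as in Arhgap21 with 91.6 and Cdk8 with 94.5.

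Regions of at most 700 bp stood apart from the wider ones. There were 74 of them, with a median percentile of 64.2 against 28.7 for 700 to 1000 bp, 37.9 for 1000 to 1500 bp, 45.8 for 1500 to 2000 bp and 51.2 for 2000 to 3000 bp. They made up 22 of the 41 regions with a mean percentile above 95, and 2 of the 74 held a coding start, against 13.6% to 26.6% of the wider classes. Of the 74, 6 passed the trend test over days that is described below, all rising. The rising share was 1.10% of the 2541 regions and 0.735% of all 12241 regions called in 12 libraries. The difference was not tested. The median ratio of DIV1 to DIV7 reads was 1.06 for these, 1.55 for 700 to 1000 bp and 2.03 for 2000 to 3000 bp, whereas reads in peaks per library were 1.76-fold higher at DIV1 on average. In the 22 regions of at most 700 bp above percentile 95 the ratio had a median of 1.02 and ran from 0.582 to 1.55. The part of the upper value of the signal in these ratios was not tested.

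**Figure D3:**
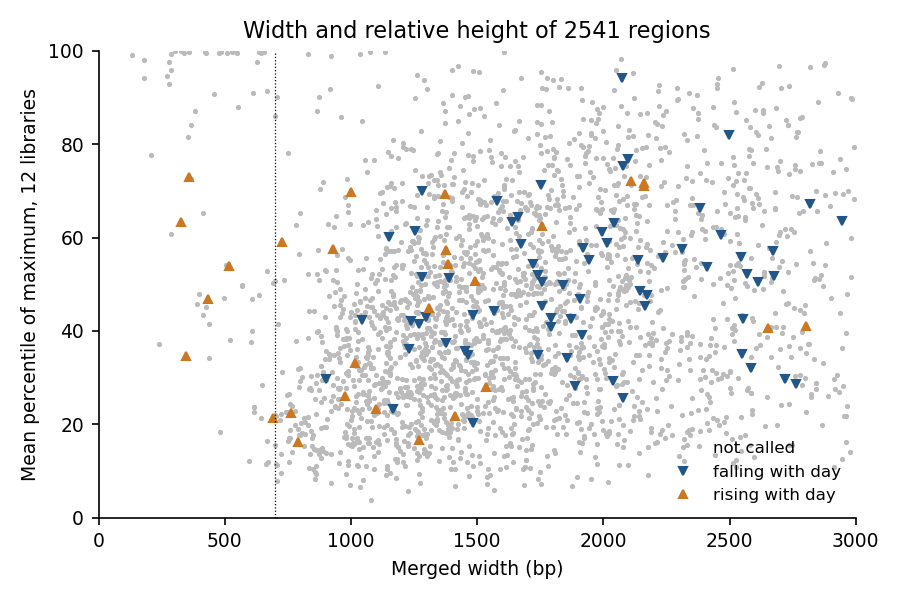
Mean percentile of the maximum over the 12 libraries (y axis) against merged width in bp (x axis) for the 2541 regions, with the 68 falling and 28 rising regions as triangles and a dotted line at 700 bp. A band of grey points close to 100 lies left of the line, and 12 of the rising but 1 of the falling regions were at most 1000 bp wide.

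Against other constant narrow regions, those inside genes held fewer reads than regions at gene ends and more than regions between genes. Medians per library were compared over the 12 libraries by two-sided exact sign-flip tests, adjusted over 10 comparisons. Reads and covered length are summed over a region, so its width enters both. The median merged width was 1583 bp inside genes, 1669 bp at gene ends and 1431 bp between genes. The part of width in these differences was not tested. The median reads per region averaged 66.8 inside genes and 80.1 in 6479 gene-end regions, lower in 11 of 12 libraries (difference -13.3 ± 6.68, SD over 12 libraries; exact p = 0.000977, adjusted 0.00195), and 60.4 in 1994 regions between genes (difference 6.33 ± 7.43, higher in 9 of 12; exact p = 0.0156, adjusted 0.0195). The length covered by peaks was 872 bp inside genes, 1023 bp at gene ends and 779 bp between genes, with the same order in 12 of 12 libraries (exact p = 0.000488 for each, the smallest p that 12 libraries allow; adjusted 0.00122). The distance of a library's summit from the consensus summit was 95.7 bp inside genes and 96.4 bp at gene ends, a difference of -0.708 ± 3.61 bp (exact p = 0.555), and 90.4 bp between genes (exact p = 0.00391, adjusted 0.00558). Within genes, the median merged width was 1728 bp with a coding start and 1538 bp with no start. Regions with a coding start held 79.8 reads and 1035 bp of peak, against 63.5 reads and 830 bp for those with no start, both higher in 12 of 12 libraries (exact p = 0.000488). Their normal score of height, in contrast, differed by 0.125 ± 0.244, higher in 5 libraries, lower in 1 and equal in 6 (exact p = 0.125), since the maximum takes few distinct values and medians tie.

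Over the 4 days the 2541 regions narrowed and their summits became less reproducible, but both changes moved with library depth and regions of the other classes did likewise. The median length covered was 1057, 998 and 975 bp at DIV1 and 466, 958 and 528 bp at DIV7 inside genes. It was 1219, 1153 and 1136 bp at DIV1 and 580, 1153 and 772 bp at DIV7 at gene ends, and 858.5, 854.5 and 806 bp against 458, 829.5 and 503 bp between genes. DIV7 replicates 1 and 3 were the low ones in every class. The share of a region covered by peaks was 69.9, 65.6 and 63.8% in the DIV1 libraries, 74.4, 58.0 and 62.2% at DIV3, 65.5, 57.1 and 43.7% at DIV5, and 31.1, 63.5 and 35.4% at DIV7. The lowest 3 values belonged to the 3 libraries with fewest reads, DIV7 replicates 1 and 3 and DIV5 replicate 3, and DIV7 replicate 2 was within the range of DIV1 and DIV3. The correlation with day was r = -0.676 (exact permutation p = 0.0154, adjusted over 5 measures 0.0385; rho = -0.691, exact p = 0.0178; r between -0.822 and -0.400 with 2 libraries of DIV1 or DIV7 left out), r = -0.451 within 50-base libraries (exact p = 0.489) and -0.861 within 51-base libraries (exact p = 0.05). Summit distance was 88.3 ± 3.75 bp for DIV1, 93.8 ± 3.40 for DIV3, 98.0 ± 2.00 for DIV5 and 103 ± 11.7 for DIV7 (SD, n = 3 each). Its r was 0.703 (exact p = 0.0107, adjusted 0.0385; rho = 0.584, exact p = 0.0518), 0.230 within the 50-base libraries (exact p = 0.733) and 0.924 within the 51-base libraries (exact p = 0.0250). Without the 3 libraries of fewest reads r was -0.314 for the share covered (exact p = 0.414) and 0.405 for the summit distance (exact p = 0.284). Without DIV7 replicate 1 alone the exact p for the share covered was 0.0519. The share of all reads in peaks that fell into the 2541 regions was 8.16 ± 0.359% at DIV1 and 8.81 ± 0.407% at DIV3, and then 7.98 ± 0.658% for DIV5 and 7.70 ± 1.10% for DIV7 and showed no trend that passed (r = -0.352, exact p = 0.266; r = 0.301 without the 3 libraries of fewest reads).

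At 96 of the 2541 regions (3.78%) the relative height changed with the day, 68 falling and 28 rising. This is by limma on normal scores of the ranks over all 12 libraries, with Benjamini-Hochberg adjustment over all 12241 regions and a threshold of 0.05, where 2.04% of all regions were called, 1.31% falling and 0.735% rising. The other classes gave 0.571% at gene ends and 3.76% between genes. Regions inside genes with a coding start accounted for 4 of the calls, 0.759% of 527, and those without a coding start for 92, 4.57% of 2014. Regions with an internal coding start thus had a share of calls near that of gene-end regions and below the background, and regions without had a share near that of regions between genes. The difference between these shares was not tested. With the log2 of a library's reads as covariate 3 of the 96 calls remained and all 96 coefficients kept their sign, and without the 3 libraries of fewest reads 24 of the 96 remained among 43 called. The 96 were picked for large trends in these same libraries, so a kept sign says little about stability.

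**Figure D4:**
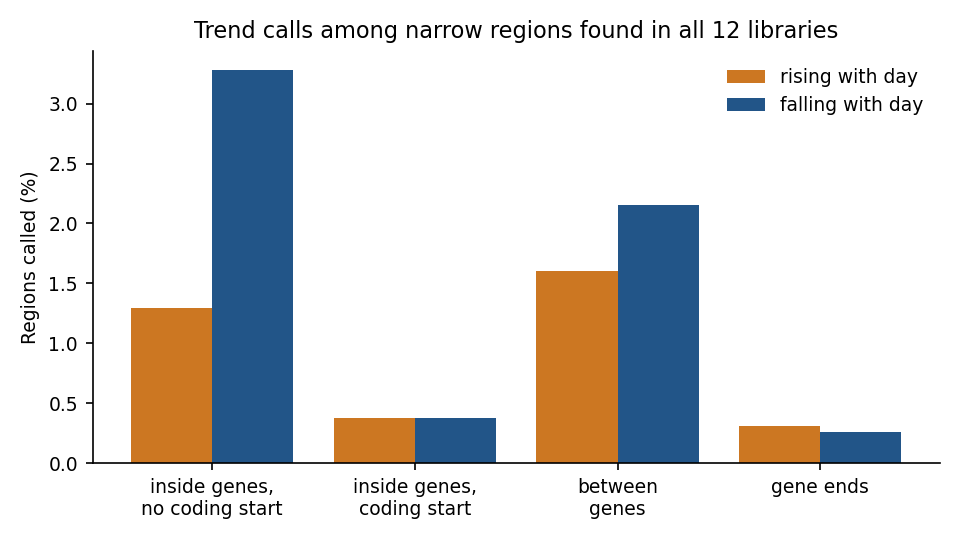
Share of narrow regions called in all 12 libraries that passed the trend test (y axis, percent), rising and falling, in 4 classes of position. Bars for falling regions stand at 3.28% inside genes without a coding start, at 2 of 527 regions with one, at 2.16% between genes and 0.262% at gene ends.

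The 4 called regions with a coding start lay in Syn2 and Zfp874b, which rose, and Pde2a and CK137956, which fell, and their windows held 5, 10, 6 and 3 CG dinucleotides, all below the median of 23 for windows in the regions. Syn2, which codes for the synaptic vesicle protein synapsin II, changed in 1 step. Its region (chr6:115237627-115239785) was at percentiles 9.50, 10.1 and 8.81 in the DIV1 libraries and at 89.7, 92.7 and 97.5 at DIV3, 92.8, 93.9 and 93.7 at DIV5, and 86.8, 94.0 and 91.6 at DIV7. It held 48, 44 and 19 reads at DIV1 and 145, 104 and 138 at DIV3. All 3 DIV1 libraries were low and all 9 later libraries high, with no overlap in the values on which the call itself rests. DIV3 was above DIV1 by 2.88 ± 0.320 normal score units (SE; limma adjusted p = 0.00155), and this call held without any single library (highest adjusted p = 0.0210), with depth as a covariate (0.00409) and with read length as a term (0.0140). DIV7 against DIV3 gave -0.212 ± 0.320 (adjusted p = 0.825). The trend over all days passed narrowly (adjusted p = 0.0481) and was lost without any of 10 libraries, with adjusted p from 0.0511 without DIV3 replicate 1 to 0.152 without DIV1 replicate 1. Within the 50-base libraries, which hold no DIV1 library, the trend coefficient was -0.0938.

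Between DIV1 and DIV3, 17 regions were higher and 2 lower at DIV3, 0.748% of 2541, with 0.327% of all regions called, 0.286% higher and 0.0408% lower. The count of 19 rested on single libraries. It was 1 without each of DIV1 replicates 2 and 3 and DIV3 replicates 1 and 3, 2 without DIV3 replicate 2, 4 without DIV1 replicate 1, and 8 without DIV5 replicate 1 and 11 without replicate 2 of that day. Leaving out DIV7 replicate 3 raised it to 35. With read length as a term it was 2, and all DIV1 libraries had 51-base reads. The comparison is the step across the addition of cytosine arabinoside. After Syn2, a region in Cdh15, which codes for M-cadherin, a cell adhesion molecule of muscle and of granule neurons (chr8:122851478-122854058), stood at percentiles 24.4, 10.1 and 8.81 at DIV1 and 85.4, 92.7 and 96.7 at DIV3. The groups did not overlap in these values, on which the call itself rests (2.56 ± 0.396, adjusted p = 0.0145). The region remained between 71.7 and 97.0 in the 6 later libraries. The call was lost without DIV1 replicate 2 or 3 (adjusted p = 0.0673 and 0.0809) and without DIV3 replicate 1, 2 or 3 (0.0595, 0.0670 and 0.107). The 2 lower regions lay in Ntn1 and Fam222b. Ntn1 codes for netrin-1, a secreted axon guidance cue, and its region (chr11:68232753-68234464) was at percentiles 93.3, 89.2 and 91.2 at DIV1 and 5.46, 12.7 and 27.8 at DIV3, with 229, 143 and 155 reads against 53, 35 and 42. All DIV1 libraries were high and every later library was at 46.9 or lower (-2.48 ± 0.476, adjusted p = 0.0441). Leaving out any DIV1 or DIV3 library, or DIV5 replicate 1 or 2, ended this call, with adjusted p from 0.0536 without DIV5 replicate 2 to 0.164 without DIV1 replicate 1.

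The Fam222b region, which holds a coding start (chr11:78114932-78116459), went down and up again. Its percentiles were 66.3, 68.5 and 72.4 at DIV1, 10.7, 1.36 and 6.64 at DIV3, 32.8, 20.3 and 8.67 at DIV5, and 46.9, 87.5 and 87.7 at DIV7. DIV3 was lower than DIV1 (-2.15 ± 0.411, adjusted p = 0.0429) and DIV7 higher than DIV3 (2.40 ± 0.411, adjusted p = 0.0198). These contrasts share the DIV3 libraries. The first was lost without any DIV1 or DIV3 library or DIV5 replicate 1 or 2 (adjusted p from 0.0538 without DIV5 replicate 1 to 0.154 without DIV3 replicate 2), and the second without DIV3 replicates 1, 2 or 3 or DIV7 replicate 3 (0.0799, 0.0627, 0.0631 and 0.0686).

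Between DIV3 and DIV7, 15 regions were higher and 52 lower at DIV7, 2.64% of 2541, with 1.17% of all regions called, 0.351% higher and 0.817% lower. In Cfap299 (chr5:98571777-98573036) the percentiles were 93.0, 89.1 and 95.3 at DIV3 and 10.4, 19.9 and 14.0 at DIV7, after 85.2, 81.2 and 93.7 at DIV5, so the drop lay after DIV5 (-2.52 ± 0.368, adjusted p = 0.0148; 0.0732 and 0.0536 without DIV3 replicates 1 and 2). In Prex1, an activator of the GTPase Rac (chr2:166691636-166692912), they were 0.964, 1.36 and 0.527 at DIV3 and 65.0, 56.4 and 87.7 at DIV7 (2.94 ± 0.586, adjusted p = 0.0289). Its call was lost without DIV3 replicate 1, 2 or 3 (adjusted p = 0.107, 0.0748 and 0.103) or DIV7 replicate 1 or 3 (0.0588 and 0.110). The count of 67 by limma fell to 0 without DIV3 replicate 1 or 2 (436 and 472 at an unadjusted p under 0.05) and to 6, 8 and 18 without DIV7 replicate 3, DIV3 replicate 3 and DIV7 replicate 1.

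Falling regions were spread over 65 genes, and Ephb2 held 3 of them. Ephb2 is a receptor tyrosine kinase for ephrin-B ligands in axon guidance and synapse formation, and it held 4 of the 2541 regions. At chr4:136824429-136826337 the percentiles were 86.5, 89.2 and 72.4 at DIV1, 79.6, 54.8 and 56.6 at DIV3, 32.8, 20.3 and 36.4 at DIV5, and 10.4, 19.9 and 4.55 at DIV7 (coefficient -0.382 ± 0.0551 normal score units per day, adjusted p = 0.00500). The DIV1 and DIV3 libraries overlapped, DIV5 lay below both, and DIV7 lay below DIV5. At chr4:136651396-136653706 they were 86.5, 84.2 and 96.2 at DIV1 and 46.9, 19.9 and 4.55 at DIV7 (-0.377 ± 0.0670, adjusted p = 0.0115), and at chr4:136781526-136784287 they were 56.7, 92.7 and 72.4 at DIV1, already 28.5, 25.2 and 15.2 at DIV3, and 10.4, 4.43 and 4.55 at DIV7 (-0.374 ± 0.0704, adjusted p = 0.0153). The fourth, at chr4:136697100-136700091, had a coefficient of -0.204 and did not pass (adjusted p = 0.131). The 3 calls held without any single library. Their DIV7 values rest on few reads in replicates 1 and 3. The DIV7 libraries held 18, 62 and 24 reads at chr4:136824429-136826337 and 36, 102 and 11 at chr4:136651396-136653706. At chr4:136781526-136784287 they held 17, 71 and 11.

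Calls that held without any single library were 17 of the 68 falling and 2 of the 28 rising. Leaving out 1 library does not remove the order of depth over the days. Of 22 trend calls at regions named by the rule given below, 1 remained with depth as covariate. Without the 3 libraries of fewest reads 10 of the 22 remained. Grid2ip, which codes for delphilin, a scaffold bound to the delta glutamate receptor, was at percentiles 95.3, 98.5 and 94.3 at DIV1 and 10.4, 31.6 and 44.5 at DIV7 (-0.421 ± 0.0689, adjusted p = 0.00762). Rbfox3, the neuronal splicing factor known as NeuN, had 5 regions, of which that at chr11:118738465-118741048 was at 74.5, 68.5 and 72.4 at DIV1 and 2.08, 4.43 and 14.0 at DIV7 (-0.364 ± 0.0603, adjusted p = 0.00762), and the other 4 had coefficients from -0.0850 to 0.0523 and did not pass. Thus 1 region of this gene passed and the other 4 did not, and the difference between them was not tested. The DIV7 values rest on few reads, 11, 80 and 29 in Grid2ip and 9, 27 and 14 in the called Rbfox3 region. The maximum takes few distinct values there, so the same percentiles recur within a library.
Nfia, a transcription factor of the nuclear factor I family in granule neurons, had 4 regions, all with negative coefficients. One of them was called, with percentiles of 56.7, 68.5 and 62.1 at DIV1, 51.6, 54.8 and 68.5 at DIV3, and 10.4, 10.4 and 4.55 at DIV7 (-0.290 ± 0.0556, adjusted p = 0.0172). DIV1 and DIV3 were alike here, and DIV7 was below both, with 18, 50 and 9 reads in its libraries. Grik3, a kainate receptor subunit, was at 81.2, 68.5 and 80.6 at DIV1 and 10.4, 19.9 and 14.0 at DIV7 (-0.302 ± 0.0539, adjusted p = 0.0115). The DIV7 libraries held 10, 37 and 10 reads there. Igsf3, an immunoglobulin superfamily protein, fell from 86.5, 92.7 and 80.6 at DIV1 to 10.1, 20.3 and 20.6 at DIV5 and 10.4, 10.4 and 28.3 at DIV7 (-0.389 ± 0.0596, adjusted p = 0.00545). In each of these genes DIV1 lay above DIV7 with no overlap. The regions were called on these same values, so the lack of overlap adds no separate evidence. Shank2, a scaffold of excitatory synapses, fell from a mean percentile of 88.5 to 26.0 (adjusted p = 0.0168), a call that was lost without DIV1 replicate 2 (0.0551).

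The falling regions had a median percentile of 82.0 on the first day, then 65.3, 34.4 and 19.4, and the rising ones 13.8, 30.8, 68.1 and 77.5. They differed in shape, with a median width of 1898 bp for falling and 1184 bp for rising regions. Of the rising regions 9 of 28 lay in Sfi1 or a predicted gene, against 1 of 68 falling. The other rising regions included Foxn3, a forkhead transcription factor, which was at percentiles 1.02, 4.12 and 16.1 at DIV1, 5.46, 25.2 and 2.23 at DIV3, 59.2, 81.2 and 36.4 at DIV5 and 78.4, 95.7 and 87.7 at DIV7. The change lay after DIV3, where the Syn2 region had already reached its height. In Usp20, a deubiquitinating enzyme, the percentiles were 5.16, 10.1 and 0.261 at DIV1, 5.46, 5.06 and 6.64 at DIV3 and 46.9, 67.0 and 44.5 at DIV7 (0.348 ± 0.0615, adjusted p = 0.0113). These were the 2 rising calls that held without any single library.

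Some regions described here were not picked by the rule for naming regions given below. They include those in Igsf3, Slc12a5, Nfia, Trio and Hip1r and the Ephb2 regions at chr4:136651396-136653706 and chr4:136781526-136784287. The Slc12a5 region was chosen after its values were seen. The strongest falling coefficients, -0.541 in Fam53b and -0.465 in Bcl7a, belong to regions not described above (limma adjusted p = 0.00500 for each). In Slc12a5, which codes for the potassium chloride cotransporter KCC2 of mature neurons, the percentiles were 9.50, 10.1 and 26.2 at DIV1 and 86.8, 67.0 and 59.4 at DIV7 (0.309 ± 0.0642, adjusted p = 0.0221), and the call was lost without DIV1 replicate 1 or 2 or DIV7 replicate 1 (0.0671, 0.0651 and 0.0535). Rora, a nuclear receptor listed as a Purkinje cell marker, had 3 regions, and the called one was at 9.50, 45.1 and 16.1 at DIV1, 79.6, 77.0 and 93.1 at DIV3 and 86.8, 95.7 and 91.6 at DIV7 (0.346 ± 0.0756, adjusted p = 0.0270). Its call was lost without DIV1 replicates 1, 2 or 3 (0.0912, 0.0555 and 0.0904).

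**Figure D5:**
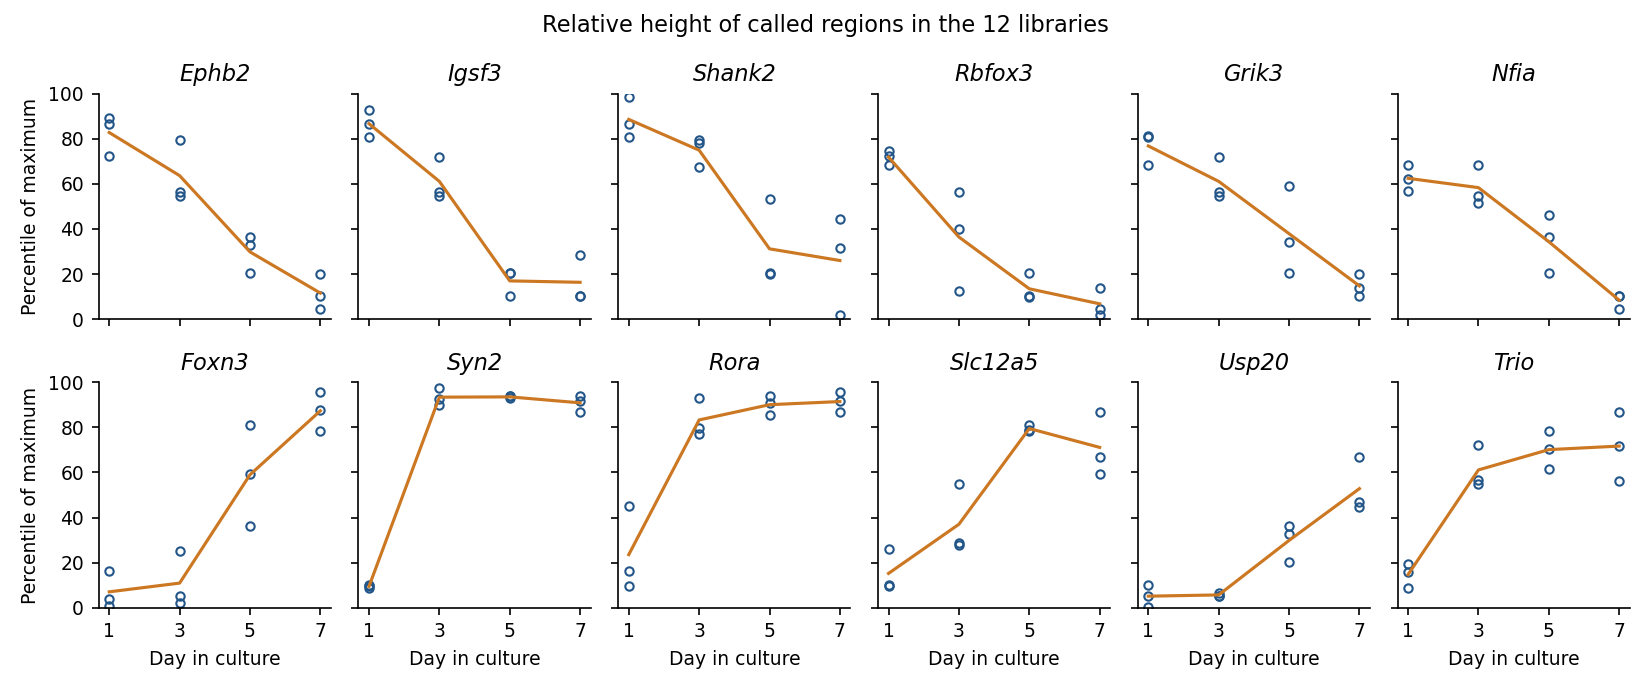
Percentile of the maximum signal among the 12241 regions called in all libraries (y axis) by day in culture (x axis) for 12 called regions; circles are the 3 libraries of a day and lines join their means. The upper 6 fall over all days, and in the lower 6 Syn2, Rora and Trio are high from DIV3 while Foxn3, Slc12a5 and Usp20 are high from DIV5 or DIV7.

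By gene list, calls of the trend were few and mostly falling. Axon guidance and adhesion genes had 4 falling and 0 rising among 32 regions, granule identity 2 and 0 among 21, RNA-binding proteins 2 and 0 among 23, synapse genes 2 and 1 among 28, cytoskeleton and migration 1 and 1 among 36, glutamate and GABA receptors 1 and 0 among 16, and chromatin regulators 1 and 0 among 24. Of the 4 axon guidance calls 3 lay in Ephb2. These counts stand beside 3.78% of the 2541 regions and 2.04% of all regions called, and with so few calls a list they describe the lists only. By limma, ion channel genes had 0 calls among 32 (9 at an unadjusted p under 0.05), Wnt, Notch, BMP and FGF genes 0 among 17 (5) and proliferation and Hedgehog genes 0 among 7 (0). The median coefficient was -0.0670 for axon guidance, -0.0584 for ion channels and -0.0401 for granule identity, and 0.0193 for Wnt, Notch, BMP and FGF genes, with -0.0143 over all 2541 regions. The 3 Rora regions of the Purkinje list had a median of 0.0810 with 1 rising, and the 2 Pdgfra regions of the oligodendrocyte list a median of -0.216 and neither passed the trend test. The region of smallest p in the Hedgehog list was that of Ptch1, with a coefficient of -0.115 (adjusted p = 0.490), and in the ion channel list that of Cacna1a, with -0.206 (adjusted p = 0.131).

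A microRNA hairpin overlapped 7 of the regions. One of them, in Hip1r, an endocytic adaptor, overlaps Mir7032 and fell from percentiles of 66.3, 84.2 and 50.5 at DIV1 to 2.08, 10.4 and 14.0 at DIV7 (-0.312 ± 0.0725, adjusted p = 0.0364; lost without any of 5 libraries, up to 0.0989 without DIV1 replicate 1). The other 6 were not called, with adjusted p from 0.347 to 0.896.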

How the data were processed

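Peaks of Zic1/2 CUT&RUN were deposited as 1 list per library for 12 libraries, 3 at each of 4 days. The submitters' processing notes name mm10, SEACR 1.3, STAR 2.7.2b, bedtools 2.25.0, MACS2 2.1, DESeq2 1.36.0, Trimmomatic 0.38 and FastQC, without the step of each. Whether duplicates were removed, and with which control and threshold peaks were called, is not given in the sources used here. The deposited signal is the authors' total and maximum coverage of each peak, not scaled to depth; the totals are whole multiples of 50 or 51, read as the read length, and their quotient is called reads. Reads in peaks were 1.01 to 3.27 M, so a median peak rests on 9 to 26 reads. The DIV1 libraries and 1 library of each later day (replicate 1 of DIV3, replicate 3 of DIV5 and of DIV7) had 51-base reads, the others 50-base reads.

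Genes and start sites came from RefSeq on GRCm38.p6; genes on the Y chromosome and starts not listed there were not used. Maximum signals were ranked within each library over 12241 regions, turned into normal scores and fitted with limma 3.58.1 in R 4.3.3 over all 12 libraries, with day as a number or as a group. Single values per library were tested by exact two-sided permutation over 369600 assignments of days, or by sign flips over libraries. The fit was tested on simulated data. The rule named the 8 strongest trends per direction, 5 per direction of each contrast, the 6 tallest, the 6 steadiest, the 3 deepest, the smallest p and the highest percentile of each of 15 gene lists, and the 3 regions on either side of each limit; those not described here are in the counts. Regions and lists were chosen with earlier results of these data known. Replicate numbers were not used to pair libraries in the main fit. After removal of day means, 2 of 18 same-numbered pairs had a correlation above 0.1, and 1 of 36 different-numbered pairs. The mean r was 0.0253 and -0.0127. Whether libraries of the same number share a preparation cannot be told from this check. At most 0.0326% of peaks were identical between any 2 libraries.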

Additional observations from a re-analysis of the deposited data

How the results depend on the processing

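Depth limits the comparisons over days, since the 3 libraries of fewest reads are all from DIV5 and DIV7, and a relative rank says nothing of absolute binding. Of 96 trend calls, 69 were also called by total signal and 71 by log2 reads, and all 96 coefficients kept their sign under both, with depth, read length or the replicate block as a term, and without the 3 libraries of fewest reads. These signs were nearly fixed in advance, since the 96 were picked for large trends in the same libraries. Trend calls numbered 297 with ranks of total signal, 316 with centred log2 reads, 3 with a depth covariate, 46 with stricter peaks, 1 where peaks cover at least 50% of the region (142 regions), 43 without the 3 libraries of fewest reads, and 31 to 116 with 1 library left out, namely 31 without DIV1 replicate 2, 42 and 47 without replicates 3 and 1 of DIV1, and 55 and 59 without replicates 3 and 1 of DIV7. Over all 12241 regions 923 were called by total signal, 997 by log2 reads and 9 with the depth covariate, against 250 in the main fit. Stricter peaks gave 126 of 10185, and the 50% cover 12 of 1096. Without the 3 libraries of fewest reads it was 106, and with 1 library left out 80 to 298. Within the 50-base libraries limma gave 0 over all regions, with 350 of the 2541 at an unadjusted p under 0.05. Within the 51-base libraries it also gave 0 over all regions, with 549 of the 2541. Both these alternatives and the one without 3 libraries were chosen after seeing the data.

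Calls of DIV3 against DIV1 numbered 47 by total signal, 34 by log2 reads, 2 with read length as a term, 0 by limma where peaks cover at least 50% of the region (6 of 142 at an unadjusted p under 0.05), 36 without the 3 libraries of fewest reads, 0 within the 51-base libraries (289 unadjusted) and 1 to 35 with 1 library left out, the lowest without DIV1 replicate 2 or 3 or DIV3 replicate 1 or 3. With the replicate block the count was 5 against 19, and the pairing of replicate numbers rests on the number alone. Calls of DIV7 against DIV3 numbered 254 by total signal, 206 by log2 reads, 2 with the depth covariate, 34 with stricter peaks, 1 where peaks cover at least 50% of the region, by limma 0 without the 3 libraries of fewest reads (323 unadjusted), 0 within the 50-base libraries (346) and 0 to 85 with 1 library left out. Over all 12241 regions 656 were called by total signal, 540 by log2 reads and 4 with the depth covariate, against 143 in the main fit. Stricter peaks gave 73 of 10185, and 1 library left out gave 0 to 187. The block gave 81 trend calls among the 2541 regions and 191 over all regions.

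The number of regions was 142 if peaks had to cover at least 50% of a region, 4341 if 11 libraries sufficed and 925 if the maximum-signal parts were merged. The correlation with day of the height difference from regions between genes was -0.685 by total signal (exact permutation p = 0.0172) against -0.444. The correlation of the share of a region covered ranged from -0.807 to -0.592 with 1 library left out, and was -0.314 without the 3 libraries of fewest reads, where that of summit distance was 0.405 and that of the share of reads reversed to 0.301. The Syn2 trend coefficient reversed to -0.0938 within the 50-base libraries. Of the other values for single regions 1160 counted as kept, 368 lost a call and 18 heights moved, all under ranks of total signal. A call counted as kept if its limma adjusted p stayed under 0.05 with the same sign. A height counted as kept if its mean percentile shifted by less than 1 SD over the 12 libraries. Leaving out 1 of 12 libraries cannot shift a mean that far. Those height checks could not fail, and they are part of the 1160. The causes were not tested.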
